A study of Mus musculus with 6 samples.

Results

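The genes described here are 9 members of the ADAMTS family, namely Adamts1, Adamts2, Adamts4, Adamts5, Adamts9, Adamts10, Adamts12, Adamts15 and Adamtsl2. They were chosen by symbol, with earlier results of these data known, so counts of them below are descriptions and not independent support. The study itself had named Adamtsl2 among genes enriched in lipofibroblasts of injured lung. Each gene has 1 row in all 6 count tables, among the 30828 to 32285 gene rows of a table. ADAMTS proteins are secreted zinc metalloproteinases with thrombospondin type I repeats that act in the extracellular matrix. Adamts1, Adamts4, Adamts5, Adamts9 and Adamts15 belong to the branch that cleaves the large proteoglycans versican and aggrecan, Adamts2 removes the amino-terminal propeptide of fibrillar procollagens, Adamts10 binds fibrillin microfibrils, and Adamts12 is a protease linked to cartilage oligomeric matrix protein. Adamtsl2 is a family member without a catalytic domain that binds fibrillin and latent TGF-β binding proteins.

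The libraries came from adult male Pdgfra-GFP mice, in which nuclear GFP is expressed from the Pdgfra locus, so the sort takes cells by activity of that locus and not by fibroblast (FB) identity. GFP+ lung cells were collected 14 days after a single oropharyngeal dose of PBS (single PBS) or bleomycin (single bleomycin), a drug that injures the lung and leads to fibrosis. The dose is given as 2 U/kg in the protocol and 4 U/kg in the treatment field of the labels. Other mice received 3 weekly doses of PBS (repetitive PBS) or of bleomycin (repetitive bleomycin), with 1 U/kg in each of the first 2 weeks and 0.5 U/kg in the last, and GFP+ cells were collected 2 weeks after the last dose. For the organoids, GFP+ FBs taken at day 14 from mice given a single dose of PBS (organoid normal) or 2 U/kg bleomycin (organoid fibrogenic) were cultured for 2 weeks in Matrigel with tomato+ alveolar type 2 epithelial cells (AEC2s) of tamoxifen-induced SpcCreER mice, in which Cre is driven by the surfactant protein C promoter, in a ratio labelled 10 to 1 with the AEC2s named first. The methods of the study instead describe more FBs than AEC2s, so which cell was in excess is not settled here. Each library pooled 3 mice and there was 1 library per condition, so the spread between mice is unknown, no test between conditions was possible, and every interval below covers counting error only. The single-dose and repetitive comparisons share no library.

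Depth ran from 7201081 unique molecular identifiers (UMIs) in single PBS to 238618743 UMIs in organoid fibrogenic. Barcodes with at least 1000 UMIs and at most 25% mitochondrial UMIs were kept, and a barcode counted as an FB when the mean log2(1 + counts per 10000) of 8 FB markers was at least 1 and no epithelial, endothelial or blood cell score reached 50% of it. This left 921 of 1060 barcodes in single PBS, 869 of 1015 in single bleomycin, 5471 of 6139 in repetitive PBS, 7705 of 10737 in repetitive bleomycin, 2178 of 5441 in organoid normal and 3774 of 8894 in organoid fibrogenic. Median UMIs per FB barcode were 6800, 11447, 10476, 3876, 48330 and 20510 in that order. Pdgfra itself was at 519 CPM (UMIs per 1000000 UMIs of the group) in single PBS FBs and 592 CPM in repetitive PBS FBs, but at 76.9 and 71.4 CPM in the organoid FBs, and Pecam1, an endothelial marker, was at 5.0 CPM or less in the FBs of every library. Scgb1a1, a secretory epithelial transcript, reached 706 CPM in single PBS FBs against 16 CPM in single bleomycin FBs. Any pair of libraries shared at most 30 barcodes.

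Within the FBs, each barcode was assigned to the subset with the highest marker score. Barcodes gated as alveolar (Tcf21, Npnt, Inmt and 5 other markers) numbered 785 in single PBS, 359 in single bleomycin, 4573 in repetitive PBS and 3386 in repetitive bleomycin. Barcodes gated as MatrixFBs (Col14a1, Pi16, Dcn and 5 others) numbered 126, 221, 872 and 3291. After bleomycin there were also MyoFB-gated barcodes (Cthrc1, Postn, Tnc and others), 104 after a single dose and 290 after repetitive dosing, and a group gated by Sfrp1 and the acute phase genes Saa3, Lcn2 and Hp, with 160 and 589 barcodes. The subsets are ranges of a score and not cell types. The next score lay within a factor of 1.2 of the top one in 3.26% of FBs in single PBS, 4.42% in repetitive PBS, 19.8% in single bleomycin and 18.8% in repetitive bleomycin. Median alveolar scores in the alveolar gate were 2.81 in single PBS and 2.4 in single bleomycin, and 3.01 in repetitive PBS and 2.27 in repetitive bleomycin. The median Sfrp1-type score in the same gate was 0 in both PBS libraries, 1.06 in single bleomycin and 0.747 in repetitive bleomycin. None of the markers is an ADAMTS gene.

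The genes lie on 8 chromosomes (GRCm38, GENCODE M21). Adamts1 (chr16:85793827-85803113, minus strand) and Adamts5 (chr16:85856173-85901828, minus strand) are neighbours with 53.1 kb between them. Adamts2 is at chr11:50602084-50807573, Adamts4 at chr1:171250421-171260637, Adamts9 at chr6:92772699-92943492, Adamts10 at chr17:33524204-33553782, Adamts12 at chr15:11064790-11349231, Adamts15 at chr9:30899155-30922452 and Adamtsl2 at chr2:27079379-27108981. No other annotated gene overlaps any of them on the same strand.

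Promoters are shown for 4 genes on which the results below turn. Adamts1 and Adamts9 were the 2 members lower after repetitive bleomycin. Adamts2 and Adamtsl2 were higher over all FBs after both kinds of exposure, as were Adamts4, Adamts5, Adamts10, Adamts12 and Adamts15. The RefSeq promoter table (GRCm38.p6, 250 bases before to 50 bases after the start) held 5 of the 9 genes, the 4 shown and Adamts12. Capitals mark TGACG or its complement CGTCA, the half-site of the cyclic AMP response element.
Adamts1, chr16:85803064-85803363, minus strand: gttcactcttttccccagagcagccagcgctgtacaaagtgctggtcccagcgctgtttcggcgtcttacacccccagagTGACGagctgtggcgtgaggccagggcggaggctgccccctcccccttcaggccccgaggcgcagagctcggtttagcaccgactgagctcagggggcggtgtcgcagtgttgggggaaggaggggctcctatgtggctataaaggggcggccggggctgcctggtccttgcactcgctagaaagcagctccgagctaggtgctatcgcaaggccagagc
Adamts9, chr6:92943485-92943784, minus strand: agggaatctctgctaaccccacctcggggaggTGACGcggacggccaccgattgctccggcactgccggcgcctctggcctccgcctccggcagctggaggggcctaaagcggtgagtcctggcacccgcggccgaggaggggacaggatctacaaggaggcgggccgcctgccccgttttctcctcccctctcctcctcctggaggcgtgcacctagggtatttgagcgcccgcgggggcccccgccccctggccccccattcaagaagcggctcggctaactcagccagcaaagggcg
Adamts2, chr11:50601835-50602134, plus strand: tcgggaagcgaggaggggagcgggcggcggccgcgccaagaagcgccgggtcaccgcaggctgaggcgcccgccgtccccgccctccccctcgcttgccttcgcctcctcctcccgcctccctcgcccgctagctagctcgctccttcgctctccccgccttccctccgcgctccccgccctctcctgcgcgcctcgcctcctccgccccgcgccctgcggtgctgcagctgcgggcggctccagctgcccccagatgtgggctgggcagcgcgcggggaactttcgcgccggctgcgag
Adamtsl2, chr2:27079129-27079428, plus strand: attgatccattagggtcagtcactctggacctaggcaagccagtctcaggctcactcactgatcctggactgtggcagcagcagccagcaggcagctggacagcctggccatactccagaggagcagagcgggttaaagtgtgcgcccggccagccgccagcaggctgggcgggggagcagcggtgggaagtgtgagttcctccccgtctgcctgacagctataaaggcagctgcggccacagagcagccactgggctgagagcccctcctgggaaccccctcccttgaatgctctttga
The half-site occurred once in Adamts1, 170 bases before the start, and once in Adamts9, 218 bases before it, and it was in neither Adamts2 nor Adamtsl2. The fifth window, of Adamts12, also held it once, 205 bases before the start, and that gene was higher after both exposures, with log2 ratios of 1.77 and 0.53. Of all 32851 promoters in the table, 20.8% held it on either strand. The AP-1 motif TGANTCA, present in 7.81% of all promoters, and the full element TGACGTCA, present in 1.79%, were in none of the 5 windows. TATAAA or its complement, in 13.6% of all promoters, was in Adamts1 and Adamtsl2. GGGCGG or its complement, in 35.7%, was in Adamts1, Adamts2, Adamts9 and Adamtsl2. A match of letters is a description of the window only.

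**Figure D1:**
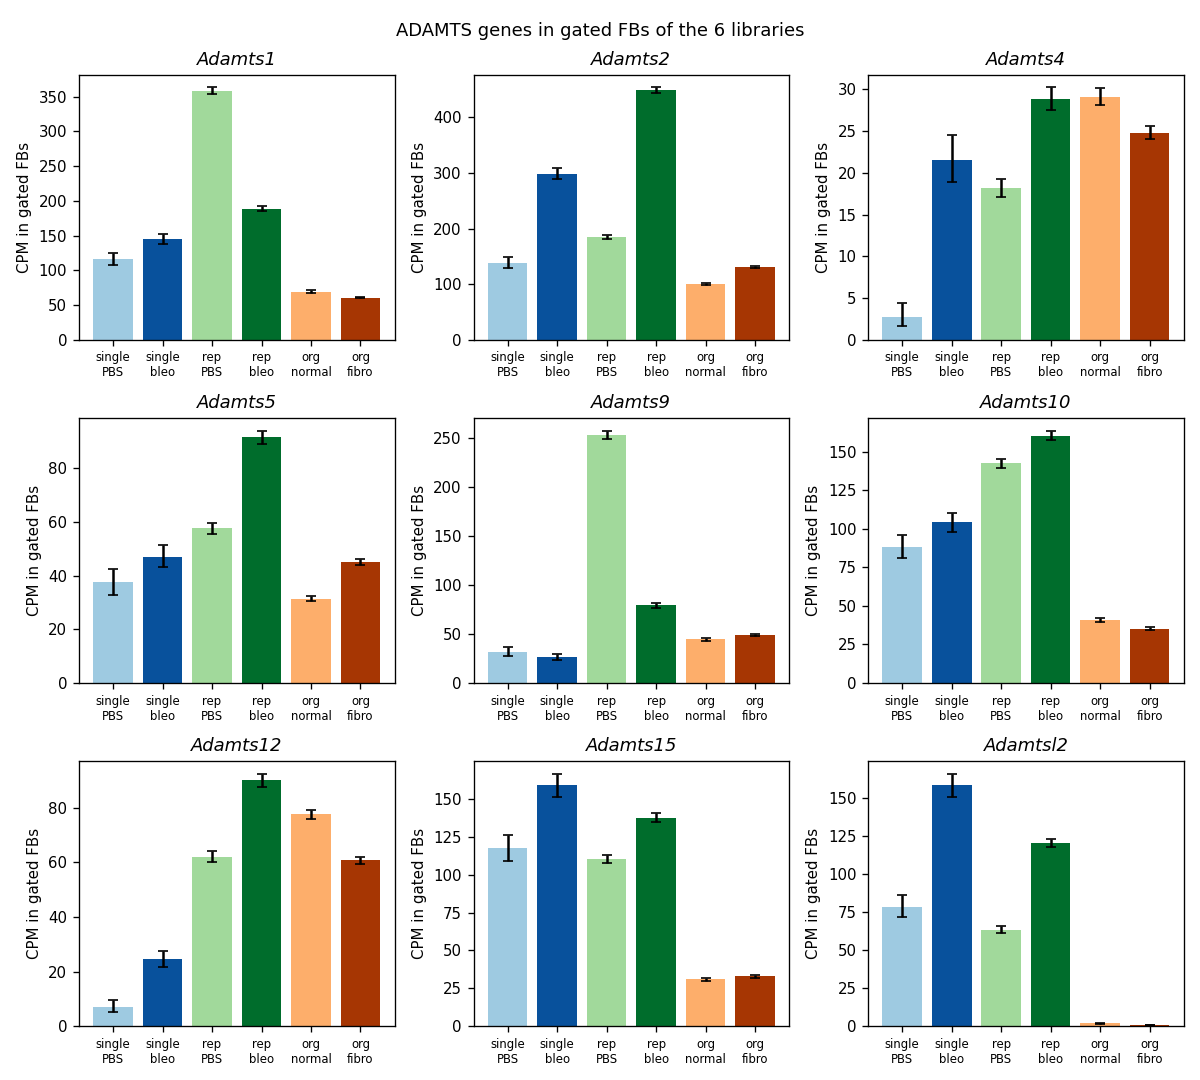
Levels of the 9 genes in gated FBs of the 6 libraries (CPM, bars) with exact 95% Poisson intervals (black lines), where rep is repetitive, org organoid, bleo bleomycin and fibro fibrogenic. Adamts2 and Adamtsl2 stood higher in both bleomycin libraries than in the PBS library of the same experiment, Adamts1 and Adamts9 were highest in repetitive PBS, and Adamtsl2 was at 1.89 and 0.669 CPM in the organoid FBs.

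All 9 genes were detected in the FBs of every library. The values are not divided by transcript length, so levels are compared between conditions and not between genes. Levels in other cell types were taken as background. T cell barcodes of the repetitive libraries (96 and 57 barcodes) held 0 to 9.74 CPM of every member except Adamts10, which was at 16 and 35.7 CPM there, and Adamts4, Adamts5 and Adamts12 had 0 or 1 UMI in them. Blood cell barcodes were not all this low. Plasma cell barcodes of repetitive bleomycin (50 barcodes) held 79.5 CPM of Adamts2 (55 UMIs), 40.5 CPM of Adamts1, 28.9 CPM of Adamtsl2 and 27.5 CPM of Adamts5, and between 2.89 and 39.0 CPM of the other 5 members. Myeloid barcodes held 26.4 CPM of Adamts10 in repetitive PBS, 16.6 CPM of Adamts2 in repetitive bleomycin and 24.8 CPM of Adamtsl2 in single bleomycin (4 UMIs). Thinned to 2000 UMIs per barcode, 36.2% of repetitive PBS FBs (Clopper-Pearson 95% interval 34.9 to 37.5) held an Adamts1 UMI against 2.41% of T cell barcodes (0.293 to 8.43). In repetitive bleomycin 53.2% of FBs (51.9 to 54.6) held an Adamts2 UMI against 1.82% of T cell barcodes (0.046 to 9.72). Barcodes under 2000 UMIs were left out, 122 and 2384 FBs and 13 and 2 T cell barcodes. Before thinning these shares were 67.6% and 3.12% for Adamts1 and 70.8% and 5.26% for Adamts2, at median depths of 10476 UMIs in FBs and 3282 in T cell barcodes of repetitive PBS and of 3876 and 4479 in repetitive bleomycin. Adamts1 and Adamts9 were also high in endothelial barcodes, at 290 and 173 CPM in repetitive PBS (62 barcodes) and 552 and 315 CPM in repetitive bleomycin (27 barcodes).

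The first comparison asked how FBs differed 14 days after a single dose of bleomycin. Of the 9 members, 4 were at least 2-fold higher in single bleomycin FBs, namely Adamts2, Adamts4, Adamts12 and Adamtsl2, and 0 were at least 2-fold lower. Among all 10782 genes with at least 50 UMIs over both libraries, 9.25% were at least 2-fold higher and 4.32% at least 2-fold lower. The median log2 ratio of the members was 0.44, beside 0.08 over all genes. With 1 library on each side, these are ratios of 2 libraries.

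Adamts2, the procollagen N-proteinase, was at 138.6 CPM (95% interval 129.5 to 148.3) in single PBS FBs and 298.7 CPM (288.5 to 309.2) in single bleomycin FBs. The log2 ratio was 1.11 (1.00 to 1.22), a 2.15-fold difference. Genes of its substrates were also higher, with Col1a1 at 867 and 3139 CPM and Col3a1 at 1442 and 5410 CPM. These collagens are among the FB gate's own markers, and the part of the gate in their ratio was not tested.

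Adamtsl2 stood at 78.7 CPM (71.8 to 86.0) and 158.4 CPM (150.9 to 166.0), a log2 ratio of 1.01 (0.86 to 1.16) whose interval reaches below the 2-fold limit. Centred on the median gene it was 0.93, and with other cell type scores limited to 25% of the FB score (chosen after seeing the data) it was 0.99. Under either choice, and with 1 CPM added to both levels, 3 members in place of 4 were at least 2-fold higher. The share over all genes was not taken under these choices. Adamts4, an aggrecanase, had 17 UMIs in single PBS FBs and 233 in single bleomycin FBs, which is 2.77 CPM (1.61 to 4.43) and 21.6 CPM (18.9 to 24.5), with a log2 ratio of 2.96 (2.25 to 3.76). Adamts12 had 44 and 265 UMIs, 7.17 CPM (5.21 to 9.62) and 24.5 CPM (21.7 to 27.7), with a log2 ratio of 1.77 (1.31 to 2.27). The low counts of Adamts4 and Adamts12 in single PBS made their ratios the least precise of the 9.

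The other 5 members differed less. Adamts15 was at 117.3 and 158.8 CPM, a log2 ratio of 0.44 (0.31 to 0.56). Adamts1 was at 116.6 and 145.4 CPM, a log2 ratio of 0.32 (0.19 to 0.45). Log2 ratios of Adamts5 and Adamts10 were 0.33 (0.10 to 0.56) and 0.24 (0.09 to 0.39). With each barcode weighted equally the log2 ratio of Adamts5 was 0.86, above its counting interval. Adamts9 was at 31.4 and 26.6 CPM, and its interval of -0.51 to 0.03 on the log2 scale included no difference.

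**Figure D2:**
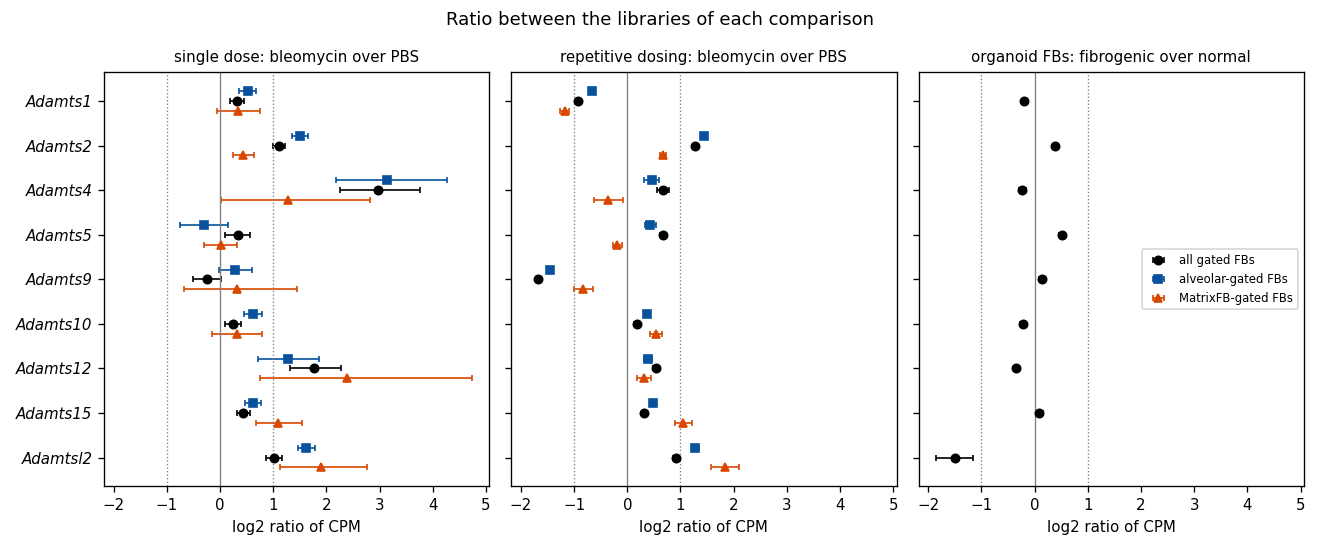
Log2 ratios of CPM between the 2 libraries of each comparison for all gated FBs (black circles) and, in the lung, for alveolar-gated (blue squares) and MatrixFB-gated FBs (orange triangles), with exact 95% intervals for counting error. The dotted lines mark 2-fold. Adamtsl2 was at least 2-fold higher after bleomycin within both subsets in both lung experiments, and Adamts1 lay above 0 after a single dose and below 0 after repetitive dosing.

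Because the alveolar and MatrixFB gates hold different shares of the FBs in each library, the ratios were also taken inside each gate. In alveolar-gated FBs, Adamtsl2 was at 88.6 CPM in single PBS and 272.2 CPM in single bleomycin, a log2 ratio of 1.62 (1.46 to 1.78). In MatrixFB-gated FBs it was at 18.3 and 67.8 CPM (15 and 141 UMIs), a log2 ratio of 1.89 (1.12 to 2.77). Both ratios lay above the 1.01 over all FBs, though the MatrixFB-gated interval overlapped that one. Adamts2 was at 110.0 and 311.7 CPM in alveolar-gated FBs, a log2 ratio of 1.503 (1.36 to 1.65), but at 319.5 and 432.7 CPM in MatrixFB-gated FBs, a log2 ratio of 0.44 (0.24 to 0.64). The intervals of the gates did not overlap.

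For Adamts4 the alveolar gate held 10 and 71 UMIs, a log2 ratio of 3.14 (2.18 to 4.26), and for Adamts12 it held 41 and 80 UMIs, a log2 ratio of 1.27 (0.71 to 1.85). Adamts15 was higher in both gates, at 125.5 and 193.9 CPM in the alveolar gate and 65.8 and 140.4 CPM in the MatrixFB gate, where the log2 ratio was 1.09 (0.67 to 1.54). Adamts5 and Adamts9 had log2 ratios inside a gate of the opposite sign to that over all FBs, with intervals that included 0. Adamts5 had a log2 ratio of -0.30 (-0.76 to 0.15) in alveolar-gated FBs and 0.01 (-0.29 to 0.33) in MatrixFB-gated FBs, against 0.33 over all FBs. Adamts9 had log2 ratios of 0.29 (-0.02 to 0.59) and 0.33 (-0.68 to 1.45) in the gates, against -0.24 over all FBs.

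The second comparison took the FBs after 3 weekly doses. In repetitive bleomycin FBs 1 member, Adamts2, was at least 2-fold higher and 1, Adamts9, was at least 2-fold lower. Of all 15263 genes with at least 50 UMIs, 12.0% were at least 2-fold higher and 3.58% at least 2-fold lower. The median log2 ratio was 0.53 over the members and 0.13 over all genes. Adamts2 was the 1 member at least 2-fold higher in both lung experiments, as were 6.07% of the 10088 genes with at least 50 UMIs in each.

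Adamts2 was at 185.2 CPM (181.8 to 188.7) in repetitive PBS FBs and 448.5 CPM (443.2 to 453.9) in repetitive bleomycin FBs, a log2 ratio of 1.28 (1.24 to 1.31). Adamtsl2 was at 63.5 CPM (61.5 to 65.6) and 120.5 CPM (117.7 to 123.3), a log2 ratio of 0.92 (0.87 to 0.98), just inside 2-fold. Adamts5 and Adamts4 followed with log2 ratios of 0.67 (0.61 to 0.73) and 0.67 (0.55 to 0.78), from 57.6 to 91.6 CPM and from 18.2 to 28.8 CPM, but both were lower in the MatrixFB gate, as given below. Adamts12 was at 62.1 and 89.98 CPM, a log2 ratio of 0.53 (0.47 to 0.60). Smaller log2 ratios were seen for Adamts15, 0.32 (0.27 to 0.37), and Adamts10, 0.17 (0.13 to 0.22).

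Adamts9, a versican-cleaving member, was at 253.1 CPM (249.1 to 257.2) in repetitive PBS FBs and 79.2 CPM (76.9 to 81.4) in repetitive bleomycin FBs. It was thus 3.20-fold lower, with a log2 ratio of -1.68 (-1.72 to -1.63). Adamts1 was at 358.2 CPM (353.4 to 363.1) and 188.8 CPM (185.4 to 192.3), a log2 ratio of -0.92 (-0.96 to -0.89). These 2 were the only members lower after repetitive bleomycin over all FBs. Centred on the median gene, Adamts1 was at -1.05 and also past 2-fold.

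Inside the gates, Adamtsl2 was at 71.3 and 173.2 CPM in alveolar-gated FBs, a log2 ratio of 1.28 (1.22 to 1.34), and at 16.5 and 58.7 CPM in MatrixFB-gated FBs, a log2 ratio of 1.83 (1.57 to 2.10). Adamts2 was at 157.8 and 431.2 CPM in the alveolar gate, with a log2 ratio of 1.45 (1.41 to 1.49), and at 353.7 and 562.8 CPM in the MatrixFB gate, with a log2 ratio of 0.67 (0.61 to 0.73). As after a single dose, Adamts2 differed more in alveolar-gated than in MatrixFB-gated FBs, and Adamtsl2 passed 2-fold in both. Adamts9 was lower in both gates, at 285.8 and 105.1 CPM in alveolar-gated FBs and 56.0 and 31.6 CPM in MatrixFB-gated FBs. Adamts1 was at 372.4 and 235.9 CPM in the alveolar gate, a log2 ratio of -0.66 (-0.70 to -0.62), and at 270.6 and 119.5 CPM in the MatrixFB gate, a log2 ratio of -1.18 (-1.26 to -1.09). Adamts5 was at 33.8 and 45.6 CPM in the alveolar gate, a log2 ratio of 0.43 (0.33 to 0.53), but at 204.3 and 179.4 CPM in the MatrixFB gate, a log2 ratio of -0.19 (-0.27 to -0.10). The MatrixFB gate, where its level was higher, held 872 of 5471 FBs in repetitive PBS and 3291 of 7705 in repetitive bleomycin, and the part of these numbers in the 0.67 over all FBs was not tested. Adamts4 had a log2 ratio of 0.46 (0.32 to 0.60) in the alveolar gate and -0.36 (-0.63 to -0.09) in the MatrixFB gate. Adamts15 passed 2-fold in the MatrixFB gate here too, at 49.5 and 102.9 CPM, a log2 ratio of 1.06 (0.90 to 1.21).

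The 2 experiments differed in the PBS libraries too. Adamts9 was at 31.4 CPM in single PBS FBs and 253.1 CPM in repetitive PBS FBs, Adamts12 at 7.17 and 62.1 CPM, and Adamts1 at 116.6 and 358.2 CPM, whereas Adamtsl2, at 78.7 and 63.5 CPM, and Adamts15, at 117.3 and 110.1 CPM, differed less. The experiments differ in dosing, in the rows of their tables and in depth, with medians of 6800 and 10476 UMIs per FB barcode in the PBS libraries. These cannot be told apart from a difference between the mice or in library preparation.

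Levels of early response genes, which are induced within minutes to hours by stress and by tissue dissociation, also differed between the libraries. Of 12 such genes, 11 were at least 2-fold lower in single bleomycin FBs and 5 in repetitive bleomycin FBs, and 0 were at least 2-fold higher in either. Over all genes 4.32% and 3.58% were at least 2-fold lower, and 9.25% and 12.0% at least 2-fold higher. The 5 lower in both were Atf3, Fosb, Egr1, Btg2 and Nr4a1. Atf3, with the lowest log2 ratio in both experiments, was at 264 and 56.1 CPM in the single-dose libraries and 868 and 232 CPM in the repetitive ones, and Fos was at 2643 and 662 CPM and at 2642 and 1480 CPM. Socs3 had the highest log2 ratios of the 12, -0.70 and 0.08. The FBs of each experiment were therefore divided into 3 groups (tertiles) by the mean score of these 12 genes, with the same limits in both libraries. The division left differences in Fos within tertiles of the single-dose experiment, with log2 ratios of -0.84, -0.97 and -1.21 from the lowest to the highest tertile. In the repetitive experiment these were 0.04, -0.34 and -0.03.

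Among FBs in the lowest tertile (1665 barcodes in repetitive PBS and 2727 in repetitive bleomycin), Adamts1 was at 128.8 and 135.9 CPM, a log2 ratio of 0.08 (-0.01 to 0.16). In the middle tertile it was at 211.2 and 165.2 CPM, and in the highest tertile at 496.2 and 292.1 CPM, a log2 ratio of -0.76 (-0.81 to -0.72), where Fos was at 4108 and 4033 CPM. The lower level of Adamts1 after repetitive bleomycin was therefore not seen in the barcodes with the lowest scores. Median depths over all FBs were 10476 UMIs in repetitive PBS and 3876 UMIs in repetitive bleomycin. Neither depth nor the shares of the gates were compared between the libraries within a tertile. Adamts9 in contrast was lower in all tertiles, at 211.2 against 68.3 CPM in the lowest, 197.7 against 58.1 CPM in the middle and 286.9 against 122.6 CPM in the highest tertile. Adamts4 was at 1.47 and 13.2 CPM in the lowest tertile (21 and 287 UMIs), a log2 ratio of 3.16 (2.52 to 3.88), and at 29.2 and 58.1 CPM in the highest tertile, a log2 ratio of 0.99 (0.86 to 1.12). In the single-dose experiment the lowest tertile held 2 and 67 UMIs of Adamts4. In the lowest tertile of the repetitive experiment 3 members were at least 2-fold higher, Adamts2, Adamts4 and Adamtsl2, in place of 1, as were 10.1% of 12906 genes with at least 50 UMIs in that tertile. The part of dissociation in these levels was not tested.

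**Figure D3:**
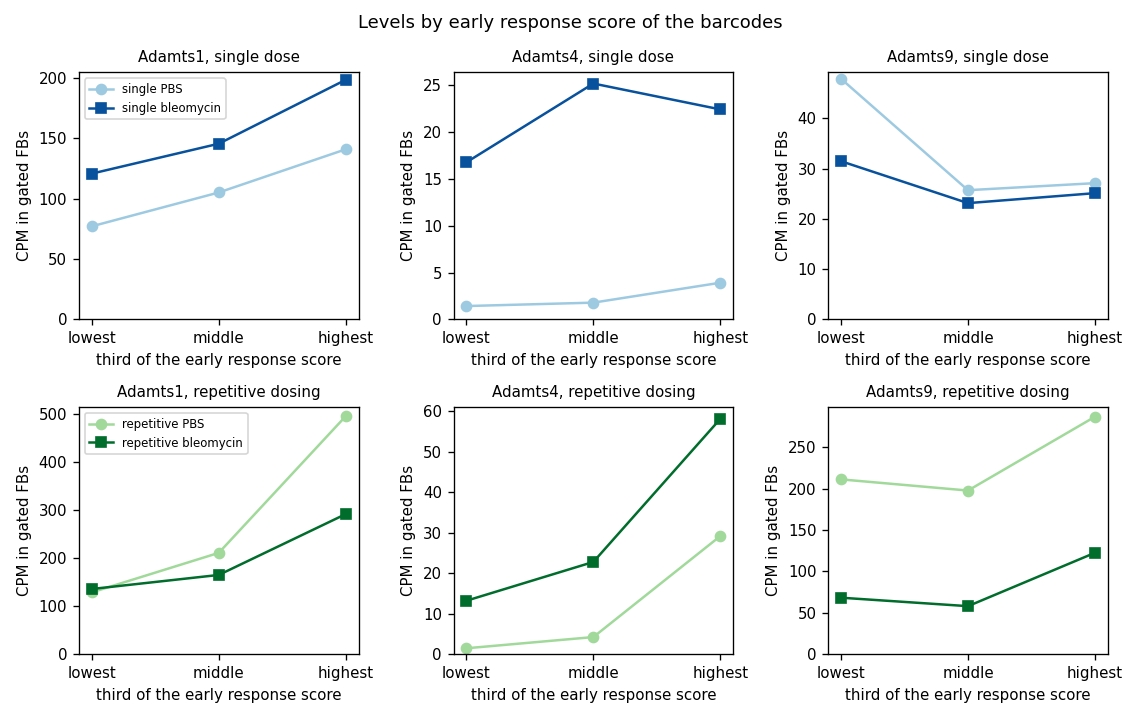
CPM of Adamts1, Adamts4 and Adamts9 in gated FBs divided into 3 groups (tertiles) by the score of 12 early response genes, in the single-dose (upper row) and repetitive (lower row) experiments, with PBS as light circles and bleomycin as dark squares and no error bars. In the repetitive experiment the Adamts1 levels meet at 128.8 and 135.9 CPM in the lowest tertile, while those of Adamts9 stay apart in every tertile.

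In the single-dose experiment Adamts1 was higher in bleomycin FBs in all tertiles, at 77.1 and 120.8 CPM in the lowest, 105.2 and 145.6 CPM in the middle and 141.0 and 198.6 CPM in the highest tertile. Adamts9 was at 47.9 and 31.5 CPM in the lowest tertile, a log2 ratio of -0.60 (-1.04 to -0.15), with intervals that included 0 in the other tertiles. Adamtsl2 was higher after bleomycin in every tertile of both experiments, with the largest log2 ratios in the lowest tertile, 1.41 (1.12 to 1.72) after a single dose and 1.27 (1.16 to 1.38) after repetitive dosing.

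Within each lung library, the members divided between the alveolar and MatrixFB gates. Adamts5 was at least 2-fold higher in MatrixFB-gated FBs in all 4 lung libraries, and Adamts9 and Adamtsl2 were at least 2-fold higher in alveolar-gated FBs in all 4. Of 9355 genes with at least 20 UMIs over both gates in each library, 2.50% were at least 2-fold higher in MatrixFB-gated FBs in all 4 libraries and 2.20% in alveolar-gated FBs in all 4.

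Adamts5, an aggrecanase and versicanase, was at 148.8 CPM in MatrixFB-gated and 20.3 CPM in alveolar-gated FBs of single PBS, 150.0 and 16.4 CPM in single bleomycin, 204.3 and 33.8 CPM in repetitive PBS, and 179.4 and 45.6 CPM in repetitive bleomycin. The gates differed 7.33-fold, 9.12-fold, 6.05-fold and 3.94-fold in that order. No alveolar-gated value reached the lowest MatrixFB-gated value. Its neighbour Adamts1 showed the opposite order, with 120.6, 172.8, 372.4 and 235.9 CPM in alveolar-gated and 84.1, 105.8, 270.6 and 119.5 CPM in MatrixFB-gated FBs of the same libraries.

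Adamtsl2 was at 88.6, 272.2, 71.3 and 173.2 CPM in alveolar-gated FBs and at 18.3, 67.8, 16.5 and 58.7 CPM in MatrixFB-gated FBs, in the order single PBS, single bleomycin, repetitive PBS and repetitive bleomycin. The alveolar gate was thus 4.84-fold, 4.01-fold, 4.33-fold and 2.95-fold higher. Adamts9 was 2.57-fold, 2.50-fold, 5.10-fold and 3.32-fold higher in the alveolar gate, with 11 and 35 UMIs in the MatrixFB gate of the single-dose libraries. MatrixFB over alveolar, its log2 ratios there were -1.36 (-2.39 to -0.49) and -1.32 (-1.89 to -0.79), with intervals that reach inside 2-fold. Adamts10 and Adamts15 were also higher in alveolar-gated FBs in all 4 libraries, with log2 ratios of MatrixFB over alveolar of -0.84 to -0.54 for Adamts10 and of -1.28 to -0.47 for Adamts15.

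Adamts2 was higher in MatrixFB-gated FBs in all 4 libraries, and the gap was narrower with bleomycin. MatrixFB over alveolar, the log2 ratio was 1.54 (1.32 to 1.75) in single PBS and 0.47 (0.35 to 0.60) in single bleomycin, and 1.16 (1.10 to 1.23) in repetitive PBS and 0.38 (0.35 to 0.42) in repetitive bleomycin. The gap was also narrower with bleomycin in both experiments for Adamts9, Adamts15 and Adamtsl2, though their single-dose intervals overlapped. For Adamts1 it was wider in both. Median MatrixFB scores in the alveolar gate were 0.763 in single PBS and 0.977 in single bleomycin. In repetitive PBS and repetitive bleomycin they were 0.681 and 1.09, and the part of this in the gaps was not tested. Adamts4 and Adamts12 had no common direction between the gates over the 4 libraries.

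**Figure D4:**
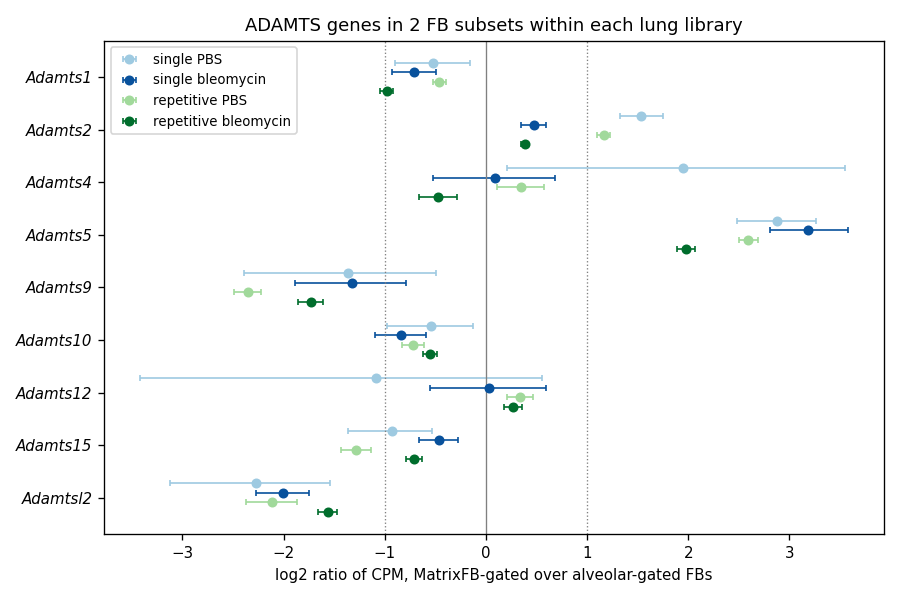
Log2 ratio of CPM between MatrixFB-gated and alveolar-gated FBs within each lung library (points, 1 colour a library) with exact 95% intervals. Values above 0 are higher in MatrixFB-gated FBs. Adamts5 lies past 1 and Adamts9 and Adamtsl2 past -1 in all 4 libraries.

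In the lung, MyoFB-gated FBs numbered over 20 only after bleomycin. Adamts12 was at 38.3 CPM there against 18.8 CPM in alveolar-gated FBs of single bleomycin, a log2 ratio of 1.03 (0.55 to 1.498), and at 189.0 against 77.7 CPM in repetitive bleomycin, a log2 ratio of 1.28 (1.16 to 1.40). Adamts4 was at 32.6 against 16.7 CPM and at 57.8 against 24.0 CPM. Adamts5 was at 19.9 against 16.4 CPM in single bleomycin, a log2 ratio whose interval of -0.33 to 0.86 included no difference, and at 60.9 against 45.6 CPM in repetitive bleomycin. Adamtsl2 was lower there, at 45.4 against 272.2 CPM and 39.3 against 173.2 CPM. So were Adamts15, at 60.2 against 193.9 CPM and 49.1 against 168.4 CPM, and Adamts2, at 162.8 against 311.7 CPM and 191.0 against 431.2 CPM. Adamts9 was lower too, with log2 ratios of -2.12 and -1.36, as were Adamts10, -1.31 and -1.45, and Adamts1, -0.53 and -1.28. The 104 and 290 MyoFB-gated barcodes had median MyoFB scores of 2.02 and 1.89 and median alveolar scores of 0.666 and 0.667.

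Sfrp1-type-gated FBs were compared with alveolar-gated FBs in the same way. Adamts1, at 174.5 and 225.2 CPM in single and repetitive bleomycin, differed from alveolar-gated FBs by log2 ratios of 0.01 (-0.17 to 0.20) and -0.07 (-0.16 to 0.03). Adamts4 was at 84.0 CPM in this gate in repetitive bleomycin, a log2 ratio of 1.81 (1.63 to 1.99) over alveolar-gated FBs, and at 26.3 CPM in single bleomycin, a log2 ratio of 0.65 (0.12 to 1.18). Adamts5 was at 36.5 against 16.4 CPM in single bleomycin, a log2 ratio of 1.15 (0.66 to 1.64), and at 61.9 against 45.6 CPM in repetitive bleomycin, a smaller log2 ratio of 0.44 (0.26 to 0.62). Adamtsl2 was lower, at 141.5 and 99.1 CPM, log2 ratios of -0.94 (-1.13 to -0.76) and -0.81 (-0.94 to -0.67). The median alveolar scores of this gate were 1.48 and 1.53.

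**Figure D5:**
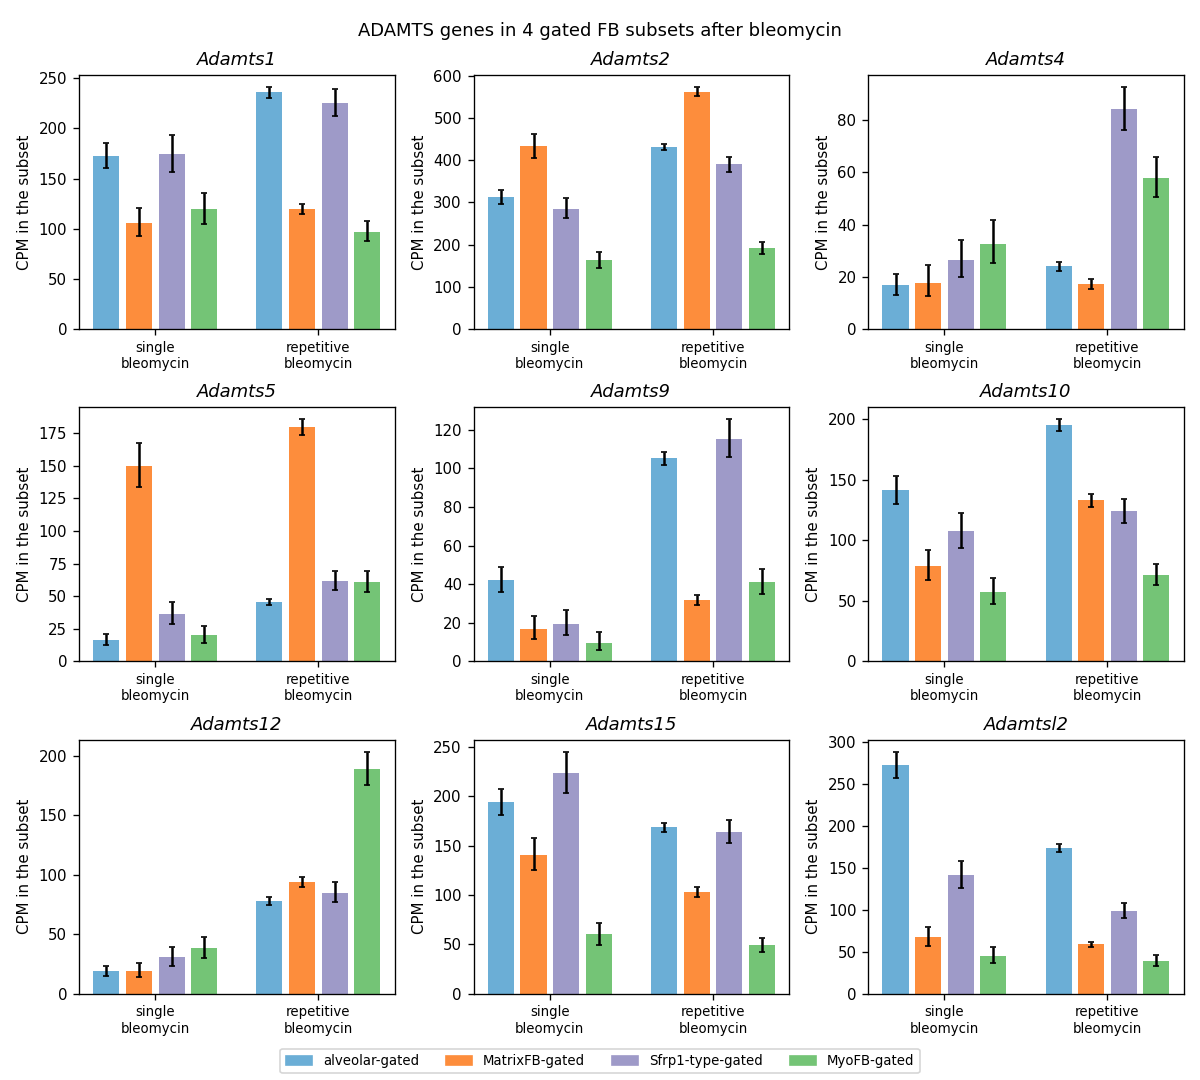
CPM of the 9 genes in alveolar-gated, MatrixFB-gated, Sfrp1-type-gated and MyoFB-gated FBs of the 2 bleomycin libraries (bars) with exact 95% Poisson intervals. Adamts12 had its highest bar in MyoFB-gated FBs, Adamts5 in MatrixFB-gated FBs and Adamtsl2 in alveolar-gated FBs of both libraries.

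The third comparison concerned FBs of normal or fibrogenic origin after 2 weeks with AEC2s. Of the 9 members 0 were at least 2-fold higher in organoid fibrogenic FBs and 1, Adamtsl2, was at least 2-fold lower. Of all 16024 genes with at least 50 UMIs, 1.62% were at least 2-fold higher and 2.73% at least 2-fold lower. Adamtsl2 had 213 UMIs in organoid normal FBs and 105 in organoid fibrogenic FBs, which is 1.89 CPM (1.65 to 2.16) and 0.669 CPM (0.547 to 0.810), a log2 ratio of -1.5 (-1.85 to -1.16). Adding 1 CPM to both levels brought it to -0.79, inside 2-fold.

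Adamts5 and Adamts2 were the members furthest above 0 in fibrogenic FBs, at 31.4 and 45.0 CPM, a log2 ratio of 0.52 (0.46 to 0.58), and at 100.6 and 130.6 CPM, a log2 ratio of 0.38 (0.34 to 0.41). Adamts12 was at 77.5 and 60.7 CPM, a log2 ratio of -0.35 (-0.39 to -0.31). The other 5 members had log2 ratios between -0.23 and 0.13. Most organoid FBs were in the MyoFB gate, 1623 of 2178 and 2964 of 3774, and 1 and 2 barcodes were in the alveolar gate. Within the MyoFB gate Adamtsl2 was at 1.42 and 0.617 CPM, a log2 ratio of -1.20 (-1.63 to -0.78). In Sfrp1-type-gated organoid FBs Adamts5 was at 36.5 and 89.9 CPM, a log2 ratio of 1.30 (1.16 to 1.44). Median depths of these 2 groups were 37104 and 5091 UMIs. In the MyoFB gate the log2 ratio of Adamts5 was 0.42 (0.35 to 0.49). In the MatrixFB gate, with 21 and 20 barcodes, it was -0.68 (-1.16 to -0.22). Sftpc, an AEC2 transcript, was at 318 and 346 CPM in these FBs. For comparison Adamtsl2 was at 39.3 CPM or more in every lung subset shown above except MatrixFB-gated FBs of PBS lungs, but culture, library and depth cannot be told apart in that contrast.

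Organoid epithelial barcodes (2056 and 2131) held some members and not others. Adamts1 was at 79.3 CPM in organoid normal and 53.9 CPM in organoid fibrogenic epithelium, a log2 ratio of -0.56 (-0.62 to -0.49), and Adamts9 was at 32.6 and 20.5 CPM, a log2 ratio of -0.67 (-0.77 to -0.57). Adamts10 was at 11.1 and 14.9 CPM. Adamts2, Adamts4, Adamts5, Adamts12 and Adamts15 were each at 2.04 CPM or less, and Adamtsl2 had 0 UMIs in both, with upper 95% Poisson bounds of 0.0452 and 0.0598 CPM. Adamts2 was at 0.612 CPM in normal epithelium beside 100.6 CPM in the FBs of the same library. After thinning to 2000 UMIs, 11.9% and 9.36% of epithelial barcodes held an Adamts1 UMI against 0.156% and 0.775% with an Adamts2 UMI, and 10.7% and 10.9% of the FBs held an Adamts1 UMI. Unthinned, the Adamts1 shares were 53.2% and 34.6% and the Adamts2 shares 2.33% and 4.36%, at median depths of 38901 and 29559 UMIs.

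Of 17 other family genes listed, 9 had at least 50 UMIs over the FBs of the single-dose libraries and 14 over those of the repetitive ones. At least 2-fold higher after bleomycin were 4 of 9 and 8 of 14, beside 9.25% and 12.0% of all genes with at least 50 UMIs. At least 2-fold lower were 0 and 1, beside 4.32% and 3.58% of all genes. The 1 lower gene was Adamts17, at 200.7 and 92.8 CPM in the repetitive libraries. Inside the gates Adamts17 did not reach 2-fold, at 221.4 and 134.2 CPM in alveolar-gated FBs and 77.3 and 53.2 CPM in MatrixFB-gated FBs. In the organoid FBs 12 had enough UMIs, with Adamts16 at least 2-fold higher at 0.169 and 0.440 CPM, and Adamts8 and Thsd4 at least 2-fold lower. Over all genes 1.62% were at least 2-fold higher and 2.73% at least 2-fold lower there. Higher by at least 2-fold in both lung experiments were 4 of 9, beside 6.07% of all genes. These were Adamts6, Adamts7, Adamtsl3 and Thsd4 (also called Adamtsl6). All 4 were low in single PBS FBs and passed the limit of 50 UMIs mainly through single bleomycin. A limit on the sum of both libraries admits such genes when they are higher after bleomycin. The count is therefore not read as a result about the family. Thsd4, which binds fibrillin-1, was at 1.80 CPM in repetitive PBS FBs and 30.01 CPM in repetitive bleomycin FBs, a log2 ratio of 4.06 (3.78 to 4.35), and at 149.9 CPM in the MyoFB gate of the latter. In the single-dose libraries it was at 1.14 and 4.35 CPM (7 and 47 UMIs). Epithelial barcodes of repetitive PBS held 346 CPM of Thsd4. Adamts6 was at 18.9 and 49.6 CPM in repetitive FBs and 0.652 and 4.90 CPM in single-dose FBs, but B cell barcodes held 104 and 175 CPM of it in the repetitive libraries. Adamts7 was at 1.30 and 7.03 CPM after a single dose and 2.61 and 5.79 CPM after repetitive dosing, and Adamtsl3 at 1.63 and 6.29 CPM and at 10.6 and 28.8 CPM. In repetitive PBS, Adamtsl3 was at 73.8 CPM in the MatrixFB gate against 0.334 CPM in alveolar-gated FBs. In repetitive bleomycin it was at 74.8 CPM in the MatrixFB gate, a log2 ratio to PBS of 0.02 (-0.12 to 0.16), and at 4.93 CPM in alveolar-gated FBs. The MatrixFB gate held 872 of 5471 and 3291 of 7705 FBs of these libraries, and the part of these numbers in the level over all FBs was not tested. In the same gate after repetitive dosing Adamts7 and Adamts6 were also inside 2-fold, with log2 ratios of 0.43 (-0.26 to 1.18) and 0.77 (0.58 to 0.96), and in alveolar-gated FBs these were 1.29 (0.96 to 1.62) and 1.26 (1.13 to 1.39). Adamts8 was lower after bleomycin in both experiments, at 92.1 and 57.1 CPM and at 96.1 and 54.3 CPM, but in alveolar-gated FBs, where it was at 102.2 and 87.7 CPM after a single dose, the log2 ratio was -0.22 (-0.42 to -0.03), and at 107.4 and 74.7 CPM after repetitive dosing, it was -0.52 (-0.59 to -0.45).

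Among 28 listed substrates, partners and inhibitors, 14 of 24 with enough UMIs were at least 2-fold higher in single bleomycin FBs and 12 of 27 in repetitive bleomycin FBs, and 0 were at least 2-fold lower in either. Over all genes 9.25% and 12.0% were at least 2-fold higher, and 4.32% and 3.58% at least 2-fold lower. The list includes FB gate markers, and these counts were not taken without them. At least 2-fold higher in both were 11 of 24, beside 6.07% of all genes, and 4 of the 11 (Col1a1, Col1a2, Col3a1 and Fbn1) are FB gate markers. The other 7 were Vcan, Lum, Fbn2, Col5a1, Fn1, Has2 and Timp1. Has2, a hyaluronan synthase, was at 0.489 and 7.22 CPM (3 and 78 UMIs) after a single dose and at 8.22 and 16.7 CPM after repetitive dosing. Fbn2, a fibrillin, had 0 and 53 UMIs in the single-dose libraries and was at 0.0842 and 9.28 CPM (5 and 559 UMIs) in the repetitive ones. Has2 and Fbn2 thus passed the limit on UMIs in the single-dose libraries mainly through single bleomycin. Timp1, a metalloproteinase inhibitor, was at 118 and 1424 CPM and at 89.1 and 500.7 CPM. By contrast Timp3, the TIMP best known to inhibit ADAMTS proteases, was lower in both, at 1472 and 906 CPM and at 2023 and 1271 CPM. Vcan, which encodes versican, was at 11.2 and 59.8 CPM and at 42.8 and 110.0 CPM. In the organoid FBs 0 of 27 were at least 2-fold higher and 2 were lower, beside 1.62% and 2.73% of all genes. The 2 were Pcsk5, a proprotein convertase, at 237.0 and 86.3 CPM and Fbn2 at 24.2 and 9.56 CPM.

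Over 13 groups of at least 50 barcodes, formed by gate and lung library, the genes with the most similar log2(CPM + 1) were listed for each member among 7880 genes. These correlations are descriptions, since groups of 1 library share its depth and the 2 experiments differ in level. For Adamts5 they were Ank2 (Pearson r = 0.96) and Gxylt2 (r = 0.95), for Adamtsl2 Snai2 (r = 0.94) and Esyt1 (r = 0.94), for Adamts9 Btbd3 and Frmd4b (both r = 0.95), for Adamts12 Iars (r = 0.99) and Klhl9 (r = 0.97), and for Adamts4 B4galt5 and Sh3pxd2b (both r = 0.92). For Adamts1 they were Wsb1 (r = 0.91) and Opa3 (r = 0.90), for Adamts2 Plekha4 and Cpxm1 (both r = 0.90), for Adamts10 Egflam (r = 0.94) and Rap2a (r = 0.93), and for Adamts15 Vstm4 (r = 0.94) and Nnmt (r = 0.92).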

How the data were processed

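The 6 droplet single-cell RNA libraries were analysed, 1 per condition. The authors aligned and counted reads with Cell Ranger 3.0.1 against mm10, per the labels, and the deposited tables hold whole-number UMI counts, not scaled, for each barcode. The submitters' processing notes also name Seurat 3. A 3′ kit is described for the single-dose libraries. The methods of the study name an annotation without limiting it to some of the libraries. The tables held 30830 and 30828 gene rows for single PBS and single bleomycin and 32285 for each other library.

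Counts were summed over gated barcodes and divided by the group's total UMIs (CPM). Log2 ratios used no pseudocount, with 0 counts set to a floor of 3 counts. Levels carry exact 95% Poisson intervals, ratios exact conditional intervals and shares Clopper-Pearson intervals. UMIs without replicate libraries give counting error only. Depth limits the precision most for Adamts4 and Adamts12 in single PBS. Gate limits were set after the files were seen, and the members, markers and gene lists were chosen with earlier results of these data known. Doublets were treated by leaving out barcodes with a second lineage's score (58 to 1359 barcodes a library), with no doublet caller. All members are named. Other family genes are given by count, with values for Adamts8 and those past 2-fold in both lung experiments. Partner and early response genes are given by count, with the highest and lowest lung ratios among the examples. The rule was 2 to 4 examples a list, and the further partner and early response genes named were chosen after their values were seen.

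The ratio step was tested on summed Poisson counts simulated with known ratios. These follow the model of the intervals, so the test checked the calculation alone and not the spread between barcodes. Alternatives were depth limits of 2000 UMIs or none, Leiden clusters (igraph 0.11.9), equal barcode weights, a pseudocount of 1 CPM, centring on the median gene, alveolar-gated FBs alone, a subset score 1.5 times the next and, added after seeing the data, a 25% limit on other cell types' scores and the lowest tertile of early response scores. Python 3.11.15, numpy 2.4.6, scipy 1.17.1, pandas 2.3.3, scikit-learn 1.9.0 and matplotlib 3.10.9 were used.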

Additional observations from a re-analysis of the deposited data

Results flagged for a closer look

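Adamts1 had a log2 ratio of 0.32 after a single dose and -0.92 after repetitive dosing, with both intervals clear of 0. It stood out because the same contrast pointed in opposite directions in the 2 lung experiments. The difference between them was not tested, since each ratio compares 2 libraries. The share of all genes with opposite signs in the 2 lung experiments was not taken. In the lowest tertile of early response scores after repetitive dosing, the log2 ratio of Adamts1 was 0.08 (-0.01 to 0.16).

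Members whose intervals lay clear of 0 on opposite sides in the lung and in cultured FBs are listed here. Log2 ratios after a single dose and in organoid FBs were 0.32 and -0.19 for Adamts1, 2.96 and -0.23 for Adamts4, 0.24 and -0.22 for Adamts10, 1.77 and -0.35 for Adamts12, and 1.01 and -1.5 for Adamtsl2. Against repetitive dosing, the pairs were 0.67 and -0.23 for Adamts4, -1.68 and 0.13 for Adamts9, 0.17 and -0.22 for Adamts10, 0.53 and -0.35 for Adamts12, and 0.92 and -1.5 for Adamtsl2. These differences were not tested, and the share of all genes with such opposite signs was not taken. The median gene lay at 0.083 after a single dose, 0.127 after repetitive dosing and -0.015 in organoid FBs. The pairs are therefore not read as a trait of the members.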

How the results depend on the processing

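Of 60 counts of members recomputed under an alternative, 56 stayed within a factor of 1.5 of the reported count. After repetitive dosing, members at least 2-fold higher numbered 2 in alveolar-gated FBs alone and 3 in the lowest tertile of early response scores (an alternative chosen after seeing the data), against 1, and members at least 2-fold lower numbered 2, against 1, when log2 ratios were centred on the median gene, which moved Adamts1 to -1.05. Over all genes 10.1% were at least 2-fold higher in that tertile. The share over all genes was not taken in the alveolar gate or under any other alternative. Whether all genes moved in the same way is therefore not known. The 4 members at least 2-fold higher after a single dose numbered 3 with a pseudocount of 1 CPM, with centring and with the 25% limit, each time without Adamtsl2. The median gene lay at 0.083, 0.127 and -0.015 in the 3 comparisons. With a pseudocount of 1 CPM, 0 organoid members were at least 2-fold lower, against 1. Of 225 recomputed log2 ratios of single members, 57 moved beyond their counting interval and 4 changed sign, none of them past 2-fold. These were Adamts5 (-0.30) and Adamts9 (0.29) in alveolar-gated FBs after a single dose, Adamts1 (0.08) in the lowest tertile after repetitive dosing and Adamts9 (-0.09) with equal barcode weights in the organoid FBs. The causes were not tested. No paired analysis was possible because each condition had 1 library. Depth limits Adamts4 in single PBS, with 17 UMIs.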
